A study of Homo sapiens with 6 samples.

Results

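Small Cajal body RNAs were followed in the human colorectal cancer cell line LS180 after knockdown of CTNNB1, MYC or MYU. Members were all genes whose array annotation carries a SCARNA, SNORA or SNORD symbol followed by a digit, apart from the SNORD113 to SNORD116 copies. The rule found 21 genes of 14812 with a listed symbol, and all 21 were Cajal body RNAs (SCARNA). Because 0 SNORA and 0 SNORD symbols were among the listed genes, nucleolar H/ACA and C/D RNAs were not analysed here, and the comparison between classes was made between the guide types within the Cajal body RNAs. The rule itself reads symbols and no measured value, but it was set with earlier results of these data known.

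Total RNA of cells given an siRNA was hybridised to Affymetrix arrays. A single array was made for the siRNA against CTNNB1, which encodes beta-catenin, a single array for that against the transcription factor gene MYC, and a single array for that against MYU, a long non-coding RNA with the symbol VPS9D1-AS1. Each knockdown was paired with a control siRNA sample named for it, giving 6 samples in 3 pairs. In the titles, the controls for CTNNB1 and MYC are both numbered 1 and the control for MYU is numbered 2, and it is not known whether the controls numbered 1 were hybridised once. The labels state neither the siRNA sequences nor the time after transfection.

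The deposited values were centred within each pair, so the control value of a gene mirrors its knockdown value and only their difference carries information. Values below are log2 differences, knockdown minus control, with base 2 assumed. With 1 array on either side there is no replicate check and no p-value, so every statement is about these arrays alone, and their number limits the precision. In such bulk samples, fewer cells with an RNA and less of it per cell cannot be told apart. The only spread at hand is the disagreement between probe sets of the same gene. Its median standard deviation over 651 genes was 0.10 for CTNNB1, 0.08 for MYC and 0.06 for MYU. It comes from the same arrays, so it holds no variation between arrays or transfections and understates the error of a difference. Each of the 21 Cajal body RNAs has 1 probe set, so they have no such check of their own.

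Cajal bodies are compartments of the nucleus in which the small nuclear RNAs of the spliceosome mature. Small Cajal body RNAs pair with those RNAs and guide enzymes to single nucleotides. Guides of the C/D type carry the methyltransferase fibrillarin and direct ribose methylation, guides of the H/ACA type carry the pseudouridine synthase dyskerin, and mixed guides hold both kinds of domain. Most are released from introns of other genes, so that guide and host come from a common transcript and then have separate fates.

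By guide type the members comprised 12 of the H/ACA type, 5 of the C/D type, 3 of the mixed type, and SCARNA27, which was left unassigned. Gene lengths ran from 125 to 166 bases in the H/ACA type, from 266 to 330 in the mixed type and from 330 to 421 in the C/D type. Length and guide type can therefore not be told apart among these genes.

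The start of a member could be shown for SCARNA17 alone, because its containing gene SNHG22, a small nucleolar RNA host gene, is annotated from the same base. In the RefSeq window of SNHG22 on GRCh38.p14, chr18:49813773-49814072 on the plus strand, the last 50 bases lie inside SCARNA17 and are in capitals. The window of ATG16L1, an autophagy gene whose span holds both SCARNA5 and SCARNA6, is shown because these RNAs had closely similar values in every pair. It lies at chr2:233251423-233251722 on the plus strand. Both windows cover 250 bases before and 50 bases after the annotated start.
SNHG22 and SCARNA17 start: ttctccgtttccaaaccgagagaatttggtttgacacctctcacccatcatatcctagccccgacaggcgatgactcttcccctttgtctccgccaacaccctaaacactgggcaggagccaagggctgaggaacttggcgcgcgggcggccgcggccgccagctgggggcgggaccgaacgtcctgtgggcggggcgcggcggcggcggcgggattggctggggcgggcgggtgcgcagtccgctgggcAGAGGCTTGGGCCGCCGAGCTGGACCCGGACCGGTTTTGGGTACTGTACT
ATG16L1 start: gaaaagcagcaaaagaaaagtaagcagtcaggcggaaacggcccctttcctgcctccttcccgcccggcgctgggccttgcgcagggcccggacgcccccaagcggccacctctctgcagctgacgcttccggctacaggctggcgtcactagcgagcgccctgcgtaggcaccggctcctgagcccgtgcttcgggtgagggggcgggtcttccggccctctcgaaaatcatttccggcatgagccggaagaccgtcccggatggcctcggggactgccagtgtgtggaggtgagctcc
Neither window holds CACGTG, the E-box letters that MYC and its partner MAX can bind. The motif reads the same on both strands and stood in 8.77% of 27305 genes with a window. Among the 21 genes with a window whose span contains a Cajal body RNA, 2 held it, USP32 and CHD4-AS1. A match is a description of letters, and its absence says nothing about the factor.

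The targeted transcripts were looked at before the members. In the MYC pair MYC had a difference of -1.18, and in the CTNNB1 pair -2.38, against 0.04 with MYU siRNA. VPS9D1-AS1 had -0.50 in its own pair, -0.53 with CTNNB1 siRNA and -0.24 with MYC siRNA. No listed probe set is assigned to CTNNB1, so that knockdown was not checked, and its array is titled CTNNB1 but tagged CTNNB2. Levels cannot be read from the centred values, so the identity of the cells could not be checked against markers. Of 7 colon epithelium markers 2 were 2-fold higher with CTNNB1 siRNA, against 2.80% of all genes. With MYC siRNA 1 was, against 0.412%, and with MYU siRNA 0, against 0.0608%. KRT20 was at 4.39, 1.16 and -0.73 in these pairs. Of 3 fibroblast markers LUM was at 2.78 with CTNNB1 siRNA, DCN at 0.01 and THY1 at -0.04. In the other pairs 0 of 3 were 1.5-fold apart. Of 3 leukocyte markers CD68 was at 2.65 with CTNNB1 siRNA, CD14 at -0.03 and LYZ at -0.23. With MYU siRNA LYZ, which gut epithelium can also express, was at 0.74, CD68 at 0.48 and CD14 at 0.06. Their part in the values below was not tested.

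With MYU siRNA nearly all Cajal body RNAs lay above their control. The difference was above 0 for 20 of 21, against 48.7% of all genes, and the median was 0.47, against 0.00 over all genes. At least 1.5-fold higher were 8 of 21, against 0.668% of all genes, and 0 of 21 were 1.5-fold lower, against 1.21%. At least 2-fold higher were 2 of 21, against 0.0608% of all genes, and 0 of 21 were 2-fold lower, against 0.0945%, so 2 were 2-fold apart in either direction, against 0.155%. The values ran from -0.06 to 1.10 with a standard deviation between members of 0.32.

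**Figure D1:**
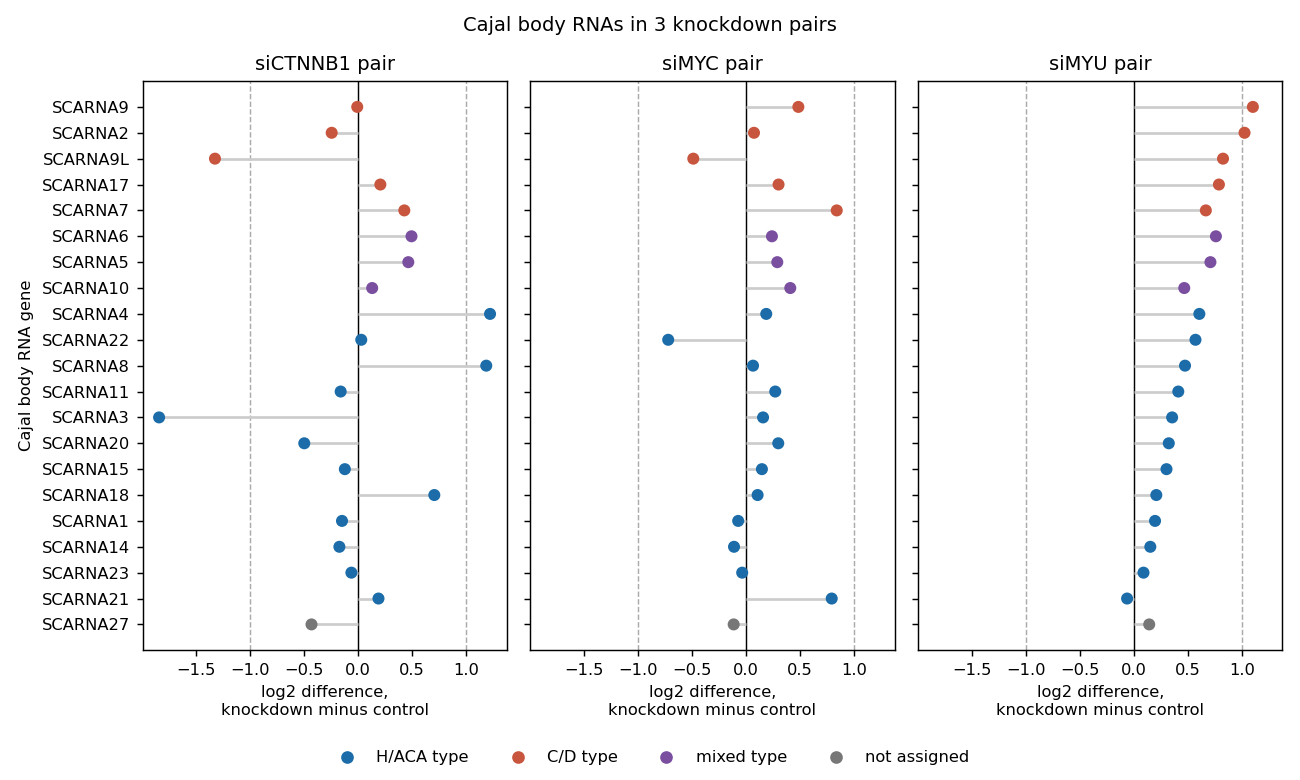
Log2 difference (horizontal axis, knockdown minus control) of each of the 21 Cajal body RNAs in the 3 pairs, 1 array on either side and no error bars, coloured by guide type, with dashed lines at a 2-fold difference. In the MYU panel 20 of 21 points lie right of 0 and the C/D type lies between 0.67 and 1.10, while the CTNNB1 panel spreads from -1.84 to 1.22.

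The 5 guides of the C/D type had the highest values as a group. SCARNA9, which guides methylation of the U2 small nuclear RNA, had deposited values of -0.55 in the control and 0.55 in the MYU siRNA array, a difference of 1.10 or 2.15-fold. SCARNA2, another U2 guide, had -0.51 and 0.51, a difference of 1.03 or 2.04-fold. These are the highest of the 21 in this pair, above 99.98% and 99.95% of all genes.
SCARNA9L, named for its likeness to SCARNA9, had -0.41 and 0.41, a difference of 0.83. Copies with like sequences may share hybridisation. The sequences of SCARNA9 and SCARNA9L were not compared here, so their values are uncertain as separate measurements. In the other pairs they differed, at -0.01 and -1.33 with CTNNB1 siRNA and at 0.49 and -0.49 with MYC siRNA. SCARNA17 stood at 0.79 and SCARNA7, a guide for the U1 small nuclear RNA, at 0.67. All 5 of this type were at least 1.5-fold higher, with a median of 0.83.

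The mixed guides came next. SCARNA6 had -0.38 in the control and 0.38 in the MYU siRNA array, a difference of 0.76, and SCARNA5 had -0.35 and 0.35, a difference of 0.71. SCARNA10, also called U85, which guides both kinds of modification on the U5 small nuclear RNA, was at 0.47. The median of the 3 was 0.71, and SCARNA5 and SCARNA6 passed 1.5-fold.

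Guides of the H/ACA type were mostly higher too, but by less. Of 12, 11 were above 0 and 1 was at least 1.5-fold higher, with a median of 0.31 and a range from -0.06 to 0.61. The leading member was SCARNA4 at 0.61, which guides pseudouridylation of U2 RNA, followed by SCARNA22 at 0.57. SCARNA8, a further U2 guide, stood at 0.47, SCARNA11 at 0.41, SCARNA3 at 0.35, SCARNA20 at 0.32 and SCARNA15 at 0.30. SCARNA18 at 0.21, SCARNA1 at 0.20, SCARNA14 at 0.15 and SCARNA23 at 0.09 were closer to 0, as was the unassigned SCARNA27 at 0.14. SCARNA21 was the exception, with 0.03 in the control and -0.03 in the MYU siRNA array, a difference of -0.06. The C/D range, 0.67 to 1.10, lay only narrowly above the H/ACA range, and the mixed guides overlapped both. SCARNA7 at 0.67 and SCARNA4 at 0.61 lay no further apart than probe sets of the same gene disagree, so these ranges are not clearly separated. Neighbours in the H/ACA order from SCARNA8 down to SCARNA23 lay closer than the 0.06 by which probe sets of the same gene disagree, except SCARNA15 and SCARNA18.

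Neither microRNA genes nor other genes of similar length showed such a shift as a whole, but TERC, RPPH1 and RMRP, described below, were at 0.64, 0.36 and 0.31. The 1037 microRNA genes had a median of 0.00 in the MYU pair with a standard deviation of 0.15. Of them 5 were 1.5-fold higher, against 0.668% of all genes, and 3 lower, against 1.21%. They were taken by symbol and not by length. Their median length was 84 bases, but the longest spans 561240. Of 45 other genes between 125 and 421 bases long, 23 were above 0 and the median was 0.00. In this set 0 were 1.5-fold higher, against 0.668% of all genes, which says little for so few genes. How many of these genes are expressed in LS180 cells cannot be read from centred values. Except for SCARNA21, each Cajal body RNA lay above at least 85.9% of the microRNA genes.

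**Figure D2:**
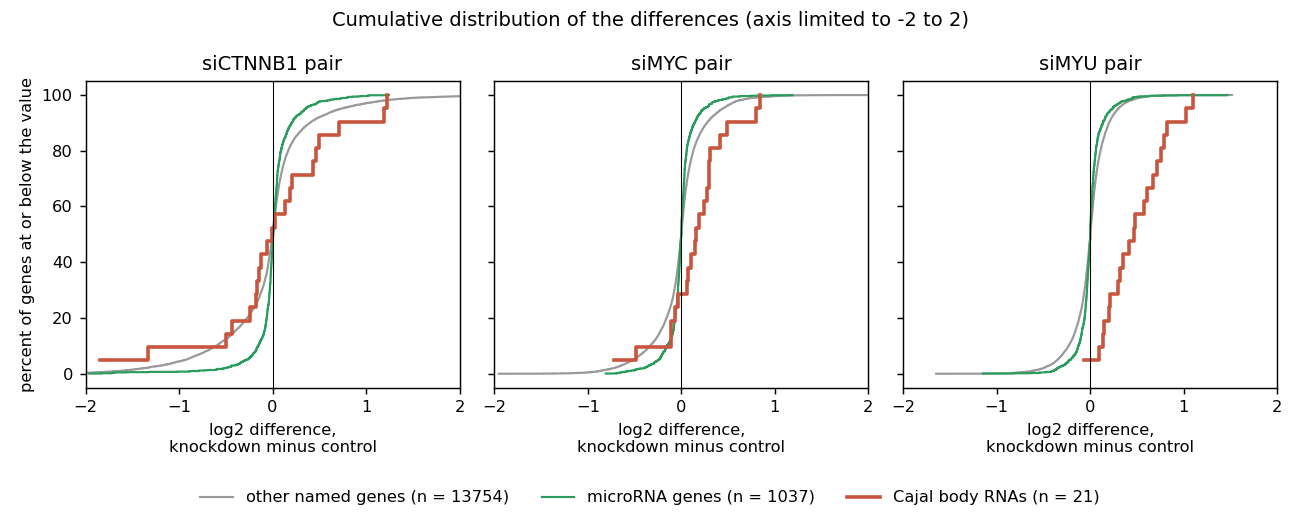
Share of genes (vertical axis, percent) at or below each log2 difference (horizontal axis) for the 21 Cajal body RNAs, the 1037 microRNA genes and all other named genes, in each pair. In the MYU panel the Cajal body RNAs lie to the right of both other curves, with a median of 0.47 against 0.00 for microRNA genes.

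Differences in the MYU pair went with the length of the Cajal body RNA. Across the 21 genes Pearson's r between length and difference was 0.79 and Spearman's rho 0.63. These are descriptive values over genes that share the same arrays and are not independent replicates. The 8 genes of at least 200 bases had a median of 0.77 and ranged from 0.47 to 1.10, and the 13 shorter ones had a median of 0.30. Within the 12 H/ACA guides alone r was -0.34 and rho -0.45, and within the 8 longer genes r was 0.43 and rho 0.61. For 11910 protein-coding genes rho between length and difference was -0.17 in this pair. Their length is the span of the gene, with a median of 26734 bases, and not that of the transcript. The value is therefore not comparable with that of the Cajal body RNAs. Over the same 21 genes r was -0.05 with CTNNB1 siRNA and 0.24 with MYC siRNA.

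**Figure D3:**
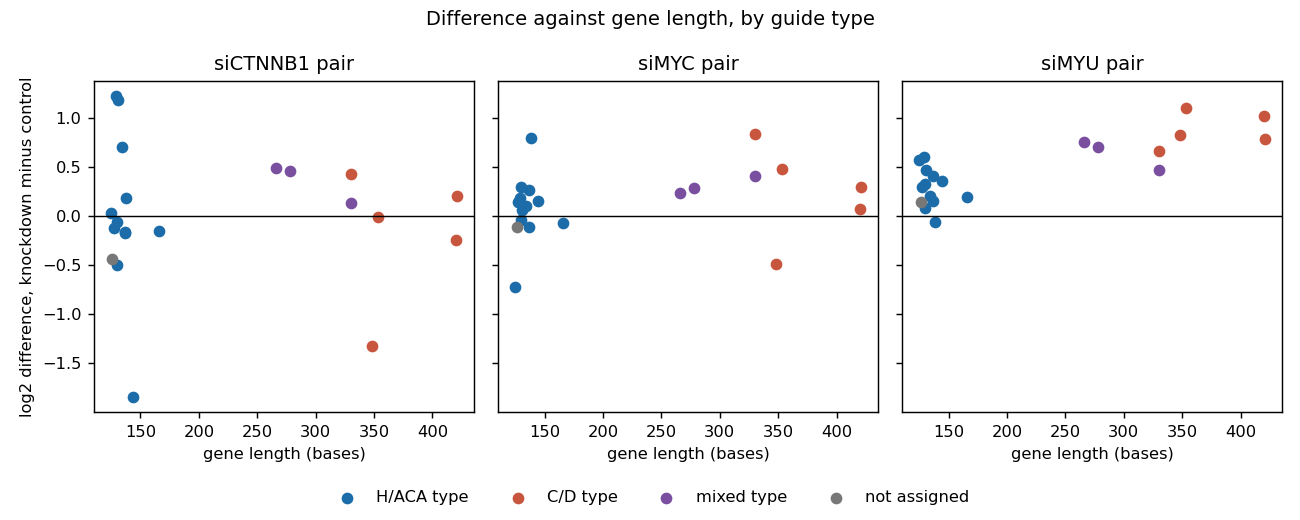
Log2 difference (vertical axis) against gene length in bases (horizontal axis) for the 21 Cajal body RNAs in each pair, coloured by guide type. In the MYU panel the 8 genes of at least 200 bases lie between 0.47 and 1.10 and the shorter ones between -0.06 and 0.61.

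With CTNNB1 siRNA the same RNAs scattered widely around 0. Of 21, 10 were above 0, against 48.9% of all genes, and the median was -0.01 with a standard deviation of 0.70. At 2-fold, 2 were higher, against 2.80% of all genes, and 2 were lower, against 4.14%, together 4 of 21 against 6.94%. At 1.5-fold 3 were higher, against 6.44%, and 2 lower, against 9.80%.

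The 3 highest values in this pair were those of H/ACA guides. SCARNA4 had -0.61 in the control and 0.61 in the CTNNB1 siRNA array, a difference of 1.22 or 2.34-fold. SCARNA8 had -0.59 and 0.59, a difference of 1.19 or 2.28-fold, and SCARNA18 a difference of 0.71. Of these, SCARNA4 and SCARNA8 both guide pseudouridylation of U2 RNA.
At the other end SCARNA3 had 0.92 in the control and -0.92 in the CTNNB1 siRNA array, a difference of -1.84 or 3.59-fold lower. Only 0.56% of all genes were lower still. SCARNA9L had 0.66 and -0.66, a difference of -1.33 or 2.51-fold lower, while SCARNA9 itself differed by -0.01. The remaining H/ACA guides lay between -0.50 for SCARNA20 and 0.19 for SCARNA21, with SCARNA14 at -0.17, SCARNA11 at -0.16, SCARNA1 at -0.15, SCARNA15 at -0.12, SCARNA23 at -0.06 and SCARNA22 at 0.03. SCARNA27 was at -0.43.

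By guide type the medians in this pair were -0.09 for H/ACA, -0.01 for C/D and 0.47 for mixed guides. The C/D and the mixed ranges both lay inside the H/ACA range. Beside SCARNA9 and SCARNA9L, the C/D guides SCARNA7, SCARNA17 and SCARNA2 had 0.43, 0.21 and -0.24. All 3 mixed guides were above 0, with SCARNA6 at 0.50, SCARNA5 at 0.47 and SCARNA10 at 0.13.

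With MYC siRNA most Cajal body RNAs differed little and 0 of 21 were 2-fold apart, against 0.857% of all genes, of which 0.412% were higher and 0.446% lower. Above 0 were 15 of 21, against 48.0% of all genes, and the median was 0.16 with a standard deviation of 0.36. At 1.5-fold 2 were higher, against 2.15% of all genes, and 1 was lower, against 3.63%. SCARNA7 had -0.42 in the control and 0.42 in the MYC siRNA array, a difference of 0.84 or 1.79-fold. SCARNA21 had -0.40 and 0.40, a difference of 0.79 or 1.74-fold. These came from different guide types, C/D and H/ACA.
SCARNA22 was the lowest, with 0.36 in the control and -0.36 in the MYC siRNA array, a difference of -0.72 or 1.65-fold lower. SCARNA22 lies in NSD2, a histone methyltransferase gene, which was at -0.34 in the same pair. In the other pairs the signs differed, with NSD2 at -0.83 and SCARNA22 at 0.03 with CTNNB1 siRNA, and -0.34 and 0.57 with MYU siRNA.

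The C/D median in the MYC pair was 0.30, the mixed median 0.29 and the H/ACA median 0.13, with overlapping ranges. SCARNA9 had 0.49 and SCARNA9L -0.49, so these copies lay on opposite sides of 0. SCARNA10 was at 0.41, SCARNA17 at 0.30, SCARNA20 at 0.30, SCARNA5 at 0.29, SCARNA11 at 0.27 and SCARNA6 at 0.24. SCARNA4, SCARNA3 and SCARNA15 had 0.19, 0.16 and 0.15. Nearest to 0 were SCARNA23 at -0.04, SCARNA8 at 0.07, SCARNA1 at -0.07, SCARNA2 at 0.07, SCARNA18 at 0.11, SCARNA14 at -0.11 and SCARNA27 at -0.11.

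Seen by gene, the pairs differed more for some members than for others. SCARNA3 ranged over 2.20 between its lowest and highest pair and SCARNA9L over 2.15, both lowest with CTNNB1 siRNA and highest with MYU siRNA. SCARNA22 ranged over 1.29 and SCARNA2 over 1.27. The smallest range was that of SCARNA23, 0.15, and the median range 0.58. The MYU pair gave the highest value for 16 of 21, the CTNNB1 pair for 3 (SCARNA4, SCARNA8 and SCARNA18, all of the H/ACA type) and the MYC pair for SCARNA7 and SCARNA21.

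SCARNA5 and SCARNA6, both mixed guides, were the only members with a containing gene in common, so they are a single case. Their sequences were not compared, and shared hybridisation was not tested. In the order CTNNB1, MYC, MYU, SCARNA5 had differences of 0.47, 0.29 and 0.71, and SCARNA6 had 0.50, 0.24 and 0.76. Their gaps of 0.03, 0.05 and 0.05 were smaller than the disagreement between probe sets of the same gene in each pair. ATG16L1, which contains both, had 0.33, -0.35 and 0.08.

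Containing genes were compared for the other members as well. In the gene table of GRCh38.p14, 20 of 21 Cajal body RNAs lie within the span of another gene, and SCARNA2 does not. For 11 of them a containing gene was measured, 10 genes in all. Strand and exons were not compared, and FSD2, which overlaps SCARNA15 together with the host gene SNHG21, is counted among them.

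With MYU siRNA the RNA lay above its containing gene in 11 of 11 cases, by a median of 0.63. As 20 of 21 members were above 0 in this pair and all genes had a median of 0.00, most would also lie above a typical gene. Of the 10 containing genes 8 were below 0, against 7149 of 14812 genes, and their median was -0.10. The gap was widest for SCARNA7 at 0.67 in KPNA4, a nuclear import receptor gene at -0.71, and for SCARNA9 at 1.10 in CEP295, a centriole gene at -0.04. SCARNA22 at 0.57 lay in NSD2 at -0.34, SCARNA4 at 0.61 in KHDC4 at -0.12, and SCARNA11 at 0.41 in CHD4, a chromatin remodeller gene, at -0.14. SCARNA14 at 0.15 lay in TIPIN, a replication fork gene, at -0.40. The smallest gap was 0.02, between SCARNA21 and the remodeller gene CHD3 at -0.08.

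The RNA also lay above its containing gene in 10 of 11 cases with CTNNB1 siRNA, by a median of 0.52, and in 10 of 11 with MYC siRNA, by a median of 0.37. These pairs may share a control array, so the counts are given side by side only. In the CTNNB1 pair the exception was SCARNA15 in FSD2 and in the MYC pair SCARNA22 in NSD2. TIPIN had -1.10 and -0.70 in these pairs and SCARNA14 -0.17 and -0.11. CEP295 had -0.89 and -0.40, against -0.01 and 0.49 for SCARNA9. Pearson's r between RNA and containing gene over the 11 cases was 0.62 with CTNNB1 siRNA, 0.49 with MYC siRNA and 0.03 with MYU siRNA, with rho of 0.67, 0.23 and 0.22. The points share arrays, and ATG16L1 enters for both of its RNAs.

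**Figure D4:**
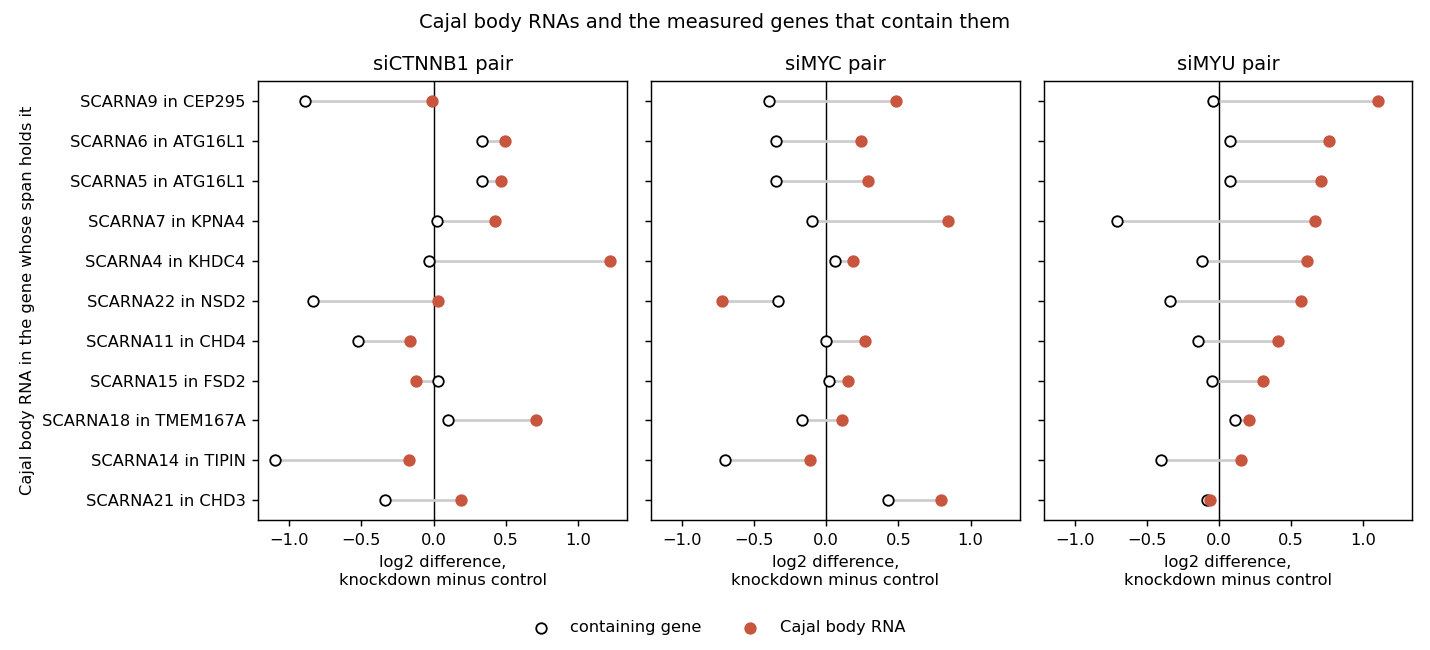
Log2 difference (horizontal axis) of 11 Cajal body RNAs (filled) and of the measured gene whose span holds each (open), in each pair. In the MYU panel the filled point lies right of the open point in 11 of 11 rows, most widely for SCARNA7 in KPNA4.

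The proteins that bind and build guide RNAs had lower list medians than the RNAs in all 3 pairs. With MYU siRNA these medians were 0.15 for C/D core proteins, 0.23 for H/ACA core proteins and 0.12 for assembly factors. The RNAs had 0.47 in that pair. With CTNNB1 siRNA all 3 measured C/D core protein genes were below 0, while 48.9% of all genes were above 0. At least 2-fold lower were 2 of the 3, against 4.14% of all genes, namely NOP58 at -1.95 and FBL, the fibrillarin gene, at -1.54, and SNU13 was at -0.98. Of the H/ACA core genes NHP2 was at -1.19, GAR1 at -1.08 and NOP10 at -0.21. NOP56 and DKC1 were not analysed here. In the MYC pair FBL had -0.86, NOP58 -0.55, SNU13 -0.53, GAR1 -1.04, NHP2 -0.37 and NOP10 -0.34, so 1 of these 6 was 2-fold lower, against 0.446% of all genes. With MYU siRNA the same 6 genes lay between -0.09 for GAR1 and 0.48 for NHP2. Of these, 0 of 6 were 1.5-fold apart, where 0.668% of all genes were higher and 1.21% lower.

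Start windows of the core protein genes are shown for those that hold the E-box letters CACGTG. All 6 measured core genes had values below 0 in both the CTNNB1 and the MYC pair, whether or not the motif was seen. Of the 6 genes 4 have a window, and 3 of the 4 hold the motif, against 8.77% of all genes with a window, while NHP2 does not. The windows come from RefSeq on GRCh38.p14, for FBL at chr19:39846330-39846629 on the minus strand, for GAR1 at chr4:109815512-109815811 on the plus strand, which is 1 of 2 windows of that gene, and for NOP10 at chr15:34343087-34343386 on the minus strand. Capitals mark the motif.
FBL start: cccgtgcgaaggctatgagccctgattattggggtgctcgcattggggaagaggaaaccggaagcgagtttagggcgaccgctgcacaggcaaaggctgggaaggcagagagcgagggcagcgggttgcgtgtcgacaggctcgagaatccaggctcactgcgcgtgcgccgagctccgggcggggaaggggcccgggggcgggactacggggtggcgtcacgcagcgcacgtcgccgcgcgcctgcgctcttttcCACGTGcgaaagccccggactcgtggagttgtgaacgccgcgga
GAR1 start: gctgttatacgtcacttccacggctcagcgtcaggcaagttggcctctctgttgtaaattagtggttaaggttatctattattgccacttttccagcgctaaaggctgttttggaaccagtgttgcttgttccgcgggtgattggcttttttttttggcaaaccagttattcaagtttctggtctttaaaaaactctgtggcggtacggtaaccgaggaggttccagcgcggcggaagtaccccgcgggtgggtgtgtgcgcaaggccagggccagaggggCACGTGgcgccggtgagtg
NOP10 start: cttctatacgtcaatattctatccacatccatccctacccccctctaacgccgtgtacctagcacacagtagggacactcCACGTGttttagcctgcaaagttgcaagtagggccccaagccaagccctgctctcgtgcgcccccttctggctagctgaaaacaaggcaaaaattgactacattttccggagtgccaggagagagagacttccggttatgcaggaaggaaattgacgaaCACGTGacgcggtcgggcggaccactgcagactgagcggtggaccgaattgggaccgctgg
NOP10, whose window holds the motif 2 times, had smaller differences than FBL and GAR1 in both pairs. NHP2, whose window lacks it, was lower at -1.19 and -0.37 than NOP10 at -0.21 and -0.34. A link between the motif and the differences was not tested. The motif was absent from the 6 assembly factor genes and the 7 Cajal body and transport genes that have a window, and stood in 1 of 8 end processing genes, XRN2, which had -1.26 with CTNNB1 siRNA and -0.44 with MYC siRNA.

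Assembly factors, which load the core proteins, were below 0 in 8 of 8 cases with CTNNB1 siRNA, 7 of them by 1.5-fold or more, against 9.80% of all genes, and had a median of -1.19. NAF1, needed for H/ACA particles, was at -1.68, and the ATPase genes RUVBL2 and RUVBL1 were at -1.28 and -1.10. With MYC siRNA 7 of 8 were below 0, 4 of them by 1.5-fold or more, against 3.63% of all genes, and the median was -0.55. With MYU siRNA the median was 0.12 with 0 of 8 1.5-fold apart, where 0.668% of all genes were higher and 1.21% lower. NUFIP1, an adaptor for C/D particles, had -1.33, -0.70 and 0.25 in the order CTNNB1, MYC, MYU.

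Cajal body and nucleolar transport genes were below 0 in 10 of 10 cases with CTNNB1 siRNA, 6 of them by 1.5-fold or more, against 9.80% of all genes, and had a median of -0.76. GEMIN5, which recognises small nuclear RNAs in the SMN complex, was at -2.37, and the nucleolar genes NOLC1 and TCOF1 were at -2.20 and -1.53. COIL, which encodes the scaffold protein coilin of the Cajal body, had values of -0.33, -0.02 and -0.31 in the order CTNNB1, MYC, MYU. In the MYC pair, where the median was -0.26, 4 of 10 were 1.5-fold lower, against 3.63% of all genes, led by TCOF1 and GEMIN5, both at -1.19. In the MYU pair the median was -0.04 and 0 of 10 were 1.5-fold apart, where 0.668% of all genes were higher and 1.21% lower. WRAP53, which brings guide RNAs to the Cajal body, was not analysed here.

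Of 9 genes for intron debranching, trimming and decay, 5 were 1.5-fold lower with CTNNB1 siRNA, against 9.80% of all genes, and 1 was 1.5-fold higher, against 6.44%, with a list median of -0.64. The exonuclease gene XRN2 was at -1.26, the lariat debranching gene DBR1 at -0.86 and the deadenylase gene PARN at -0.64, and the cytoplasmic exonuclease gene XRN1 was higher at 0.64. With MYC siRNA the median was -0.40 and with MYU siRNA -0.08, and 0 of 9 were 1.5-fold apart in either pair. Of all genes 2.15% were 1.5-fold higher and 3.63% lower with MYC siRNA, and 0.668% and 1.21% with MYU siRNA.

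Other small RNAs gave a further comparison. TERC, the telomerase RNA, which has an H/ACA domain and passes through Cajal bodies, stood at -0.59 with CTNNB1 siRNA, at -1.01 with MYC siRNA and at 0.64 with MYU siRNA. RMRP and RPPH1, the RNAs of the RNase MRP and RNase P enzymes, were at 0.31 and 0.36 with MYU siRNA, and between -0.15 and 0.10 in the other pairs. The vault RNA genes VTRNA1-1, VTRNA1-2, VTRNA1-3 and VTRNA2-1 lay between -0.17 and -0.02 with MYU siRNA, and VTRNA1-1 and VTRNA1-2 were higher with CTNNB1 siRNA at 0.82 and 0.80. In the MYU pair 3 of these 7 RNAs were above 0, with a median of -0.02, and TERC was the 1 that passed 1.5-fold. TERC, RPPH1 and RMRP lay above 99.6%, 96.9% and 95.6% of all genes in that pair, while the vault RNAs were all below 0.

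**Figure D5:**
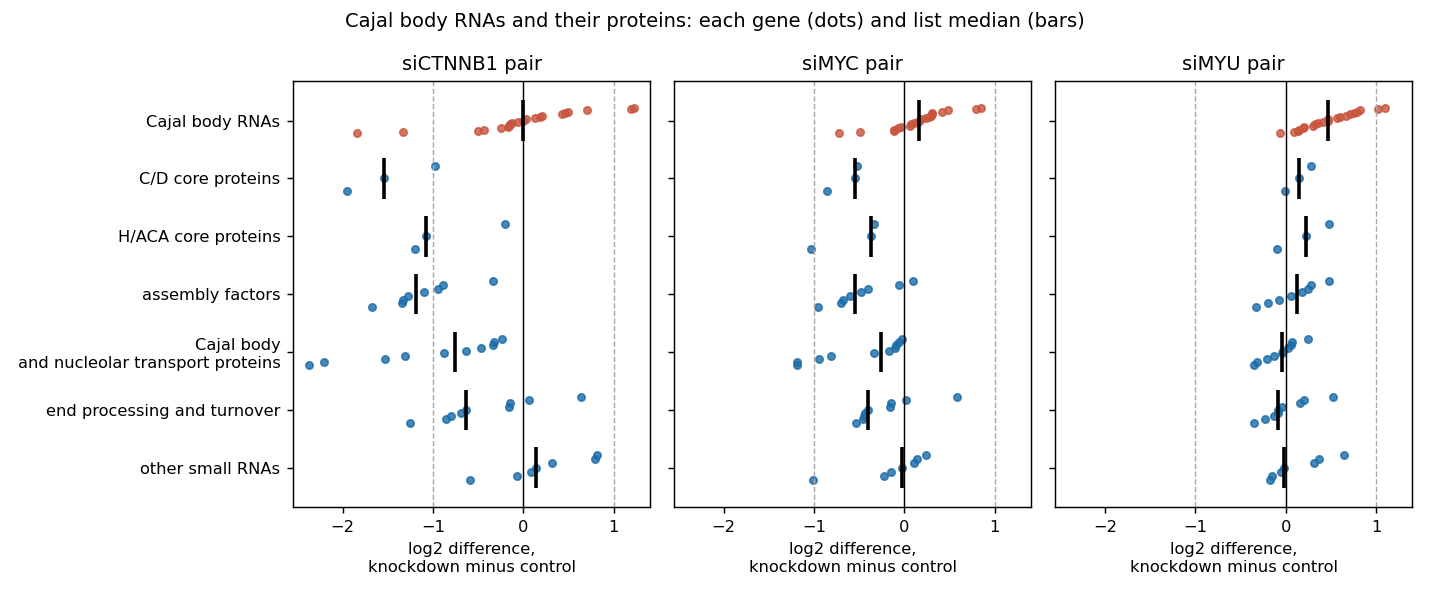
Log2 differences (horizontal axis) of the 21 Cajal body RNAs and of the listed protein and small RNA genes (dots), with the median of each list as a bar, in each pair. With CTNNB1 siRNA the medians of the core protein lists are -1.54 and -1.08 while that of the RNAs is -0.01, and with MYU siRNA the RNAs have a median of 0.47.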

How the data were processed

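Expression was measured by array in 6 LS180 samples, with TRIsure total RNA and biotin labelling per the labels' protocols. How background was corrected and arrays were normalized is not given in the sources used here. Log2 values deposited by the authors are centred pair by pair: knockdown and control cancel to within 1e-06 at every probe set. Base 2 was assumed, as none is stated. Levels and the spread between controls cannot be recovered, so no test, filter on low values or left-out array was possible.

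Of 44629 probe sets, 15835 have 1 listed gene symbol, 0 several and 28794 none. All 15835 matched the gene table of GRCh38.p14 by identifier and gave 14812 genes, each the mean of its probe sets. The members and lists were chosen with earlier results of these data known. The design foresaw nucleolar H/ACA and C/D classes, which have 0 listed genes. Guide types of the Cajal body RNAs were assigned from general knowledge and the table's synonyms after the annotation was seen. Genes named are every member, the targeted transcripts, and a part of the measured containing genes and list genes. Those left unnamed enter only the counts, medians and figures. Calls use 2-fold, with 1.5-fold beside it. A containing gene is any whose span covers the member. Alternatives were 1.5-fold, the probe set nearest to 0, centring on all genes or on microRNA genes, 1 value per containing gene, and leaving out SCARNA9L, the last chosen after seeing the data. The counting was tested on simulated data. Software was matplotlib 3.10.9, scipy 1.17.1, pandas 2.3.3 and numpy 2.4.6 under Python 3.11.15.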

Additional observations from a re-analysis of the deposited data

How the results depend on the processing

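Values were set against other settings over the 21 Cajal body RNAs. Centring on all genes, centring on microRNA genes and reading the probe set nearest to 0 could hardly move a value here and say nothing about stability, because all genes have a median of 0.00 in each pair, the microRNA median lies at 0.00 in the MYC and MYU pairs and at 0.01 in the CTNNB1 pair, and each member has 1 probe set. Leaving out SCARNA9L moved the C/D median from -0.01 to 0.10 with CTNNB1 siRNA, from 0.30 to 0.39 with MYC siRNA and from 0.83 to 0.91 with MYU siRNA. Taking 1 value per containing gene moved the mixed median from 0.47 to 0.31 in the CTNNB1 pair and from 0.71 to 0.60 in the MYU pair, by construction, as SCARNA5 and SCARNA6 then count once. At 1.5-fold in place of 2-fold, 3 members were apart with MYC siRNA and 8 with MYU siRNA, against 0 and 2. The planned results for nucleolar H/ACA and C/D RNAs gave no value, with 0 listed genes. No paired analysis was possible because each knockdown has 1 array and its pair was already centred. Signal over background cannot be read from centred values, so which members are well above background is unknown.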
